A study of Homo sapiens with 3 samples.

Results

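The replication-dependent histone genes are the short genes, most of them packed into clusters, that encode the bulk of the H1, H2A, H2B, H3 and H4 proteins. They were taken as the protein-coding genes of GENCODE 44 on hg19 whose symbols start with HIST1H, HIST2H or HIST3H, or that bear the newer names H1-1 to H1-6, H2AC, H2BC, H3C or H4C with a number. The rule gave 66 of 19756 protein-coding genes: 6 for the linker histone H1, 17 for H2A, 16 for H2B, 13 for H3 and 14 for H4. HIST1H4B and HIST2H2AA3 kept their older symbols in the annotation. H3-4, H2BC12L and H3-7 fell outside the rule by their symbols and were not counted. The genes were set against ChIP-seq peaks, which are places where DNA recovered with an antibody piled up, in MDA-MB-231, an established human breast cancer cell line of mesenchymal character that lacks hormone receptors. Peak lists give no expression, so the identity of the cells could not be checked from marker genes. 1 library was made with an antibody against RBPJ, the factor (CBF1 and CSL are older names) through which Notch signals reach DNA, and 1 with an antibody against L3MBTL3, a methyl-lysine reader. The series was made to find where the 2 proteins lie together on chromatin. The RBPJ list held 2926 peaks and the L3MBTL3 list 444. No antibody had a replicate, so no difference below has a replicate error or a test. Intervals on shares are 95% Wilson intervals that cover counting error only. They take genes as independent, so they are too narrow where neighbouring genes share a peak. Input DNA, the third sample, was not analysed here.

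Replication-dependent histone genes have no introns in most cases, and their mRNAs end in a stem-loop in place of a poly(A) tail. They are transcribed mainly in S phase, when new DNA must be packaged, and the coactivator NPAT drives them downstream of cyclin E and CDK2. Many H2A and H2B genes lie head to head and share the sequence between their starts, where TATA boxes, CCAAT boxes (bound by NFY) and, at H2B genes, an octamer (bound by POU2F1) are known promoter elements. RBPJ binds the words CGTGGGAA and TGTGGGAA, recruits corepressors when Notch is silent and carries the Notch intracellular domain when Notch is active. L3MBTL3 is known as a partner of RBPJ that brings in the demethylase KDM1A.

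The sequences at or beside the RBPJ peaks near histone genes are shown first, because many of the words described below can be read in them. Of the summits at starts, only those of H4C11 and H4C12 lie within the printed bases. The peaks at H2BC5, H2BC6 and H2BC11 lie wholly downstream of the printed bases, so some words described below are not in them. They come from GRCh37, the assembly of hg19, and run 5′ to 3′ on the strand of the gene. For 5 genes they are the 200 bases before the outermost start: H2BC5 on the plus strand (chr6:26158150-26158349), H2BC6 on the plus strand (chr6:26172087-26172286), H2BC11 on the minus strand (chr6:27100575-27100774), H4C11 on the plus strand (chr6:27791670-27791869) and H4C12 on the minus strand (chr6:27799339-27799538). For H4C8, on the minus strand, 30 bases before its protein-coding start are given (chr6:26285763-26285792). The annotated gene begins farther upstream, at 26285866, so these bases lie inside it. Capitals mark the TATA box word TATAAA, the NFY word CCAAT or its reverse complement ATTGG, the octamer ATTTGCAT and the RBPJ core TGGGAA, on either strand.
H2BC5: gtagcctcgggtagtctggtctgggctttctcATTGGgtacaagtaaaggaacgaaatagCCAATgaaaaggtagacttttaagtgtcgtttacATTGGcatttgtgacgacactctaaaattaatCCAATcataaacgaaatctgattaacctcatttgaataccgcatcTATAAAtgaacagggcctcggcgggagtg
H2BC6: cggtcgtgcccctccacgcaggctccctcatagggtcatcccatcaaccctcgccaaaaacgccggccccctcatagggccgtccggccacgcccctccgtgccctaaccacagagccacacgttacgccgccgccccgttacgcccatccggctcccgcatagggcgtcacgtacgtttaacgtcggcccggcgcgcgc
H2BC11: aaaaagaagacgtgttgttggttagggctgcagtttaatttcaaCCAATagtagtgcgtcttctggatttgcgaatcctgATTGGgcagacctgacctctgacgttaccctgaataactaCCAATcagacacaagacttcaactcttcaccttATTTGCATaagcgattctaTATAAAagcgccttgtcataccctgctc
H4C8: atataagggcgttgctttgccttggcgttt
H4C11: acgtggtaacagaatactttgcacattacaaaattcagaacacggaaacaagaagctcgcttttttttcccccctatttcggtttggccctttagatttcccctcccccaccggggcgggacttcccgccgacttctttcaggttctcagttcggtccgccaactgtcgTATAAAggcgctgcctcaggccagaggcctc
H4C12: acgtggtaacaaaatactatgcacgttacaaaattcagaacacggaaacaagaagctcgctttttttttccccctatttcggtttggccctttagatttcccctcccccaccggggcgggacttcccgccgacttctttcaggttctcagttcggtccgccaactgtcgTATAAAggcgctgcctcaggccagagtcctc
The peak near H2AC25 lay far from any start, so the 201 bases centred on its summit are shown on the plus strand of the genome (chr1:228639923-228640123), with capitals for the core TGGGAA.
H2AC25: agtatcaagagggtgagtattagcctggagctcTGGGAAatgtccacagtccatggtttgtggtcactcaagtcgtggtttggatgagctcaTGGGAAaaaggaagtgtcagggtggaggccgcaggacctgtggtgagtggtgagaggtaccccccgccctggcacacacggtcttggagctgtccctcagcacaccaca

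The members fell into 6 groups when starts up to 300 kb apart were joined. Cluster 6-A on chromosome 6 held 31 genes over 559 kb, with starts from 25726790 to 26285762. Cluster 6-B held 5 genes over 14.6 kb (27100327 to 27114885), and cluster 6-C held 16 over 85.5 kb (27775707 to 27861203). On chromosome 1, cluster 1-A held 11 genes over 75.6 kb (149783925 to 149859515), and cluster 1-B held H2AC25 and H2BC26, 0.23 kb apart. H4C16 stood alone on chromosome 12, with its start at 14924065. Of the 66 genes, 22 formed 11 head-to-head pairs, 10 of an H2A with an H2B gene and 1 of H2BC9 with H3C7. All 66 had CpG-rich starts, with an observed over expected CpG ratio of 0.608 to 1.04 (median 0.853) in 1 kb. H1-6, H2AC1 and H2BC1 belong to the set by their names, although they are known as histone genes of the male germ line.

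RBPJ peaks lay on annotated starts of 3 H2B and 3 H4 genes. For H2BC6 this was an upstream start, 11702 bp before its other start. In all, 7 RBPJ peaks had a summit within 10 kb of a histone gene start, and 6 of the 7 had it within 100 bp of one. These 6 were divided between H2BC5, H2BC6 and H2BC11 and between H4C8, H4C11 and H4C12. The seventh lay in an intron of H2AC25. None of the 6 H1 or 13 H3 genes had a summit within 1 kb (Wilson intervals up to 39.0% and 22.8%), and since 8.9% of all genes and 12.6% of CpG-rich genes had one, these counts of 0 do not set the H1 and H3 genes apart. No L3MBTL3 peak lay near any member. The fold given for each peak is the deposited enrichment at its summit over the peak caller's background, and its error is unknown because the lists hold no read counts.

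**Figure D1:**
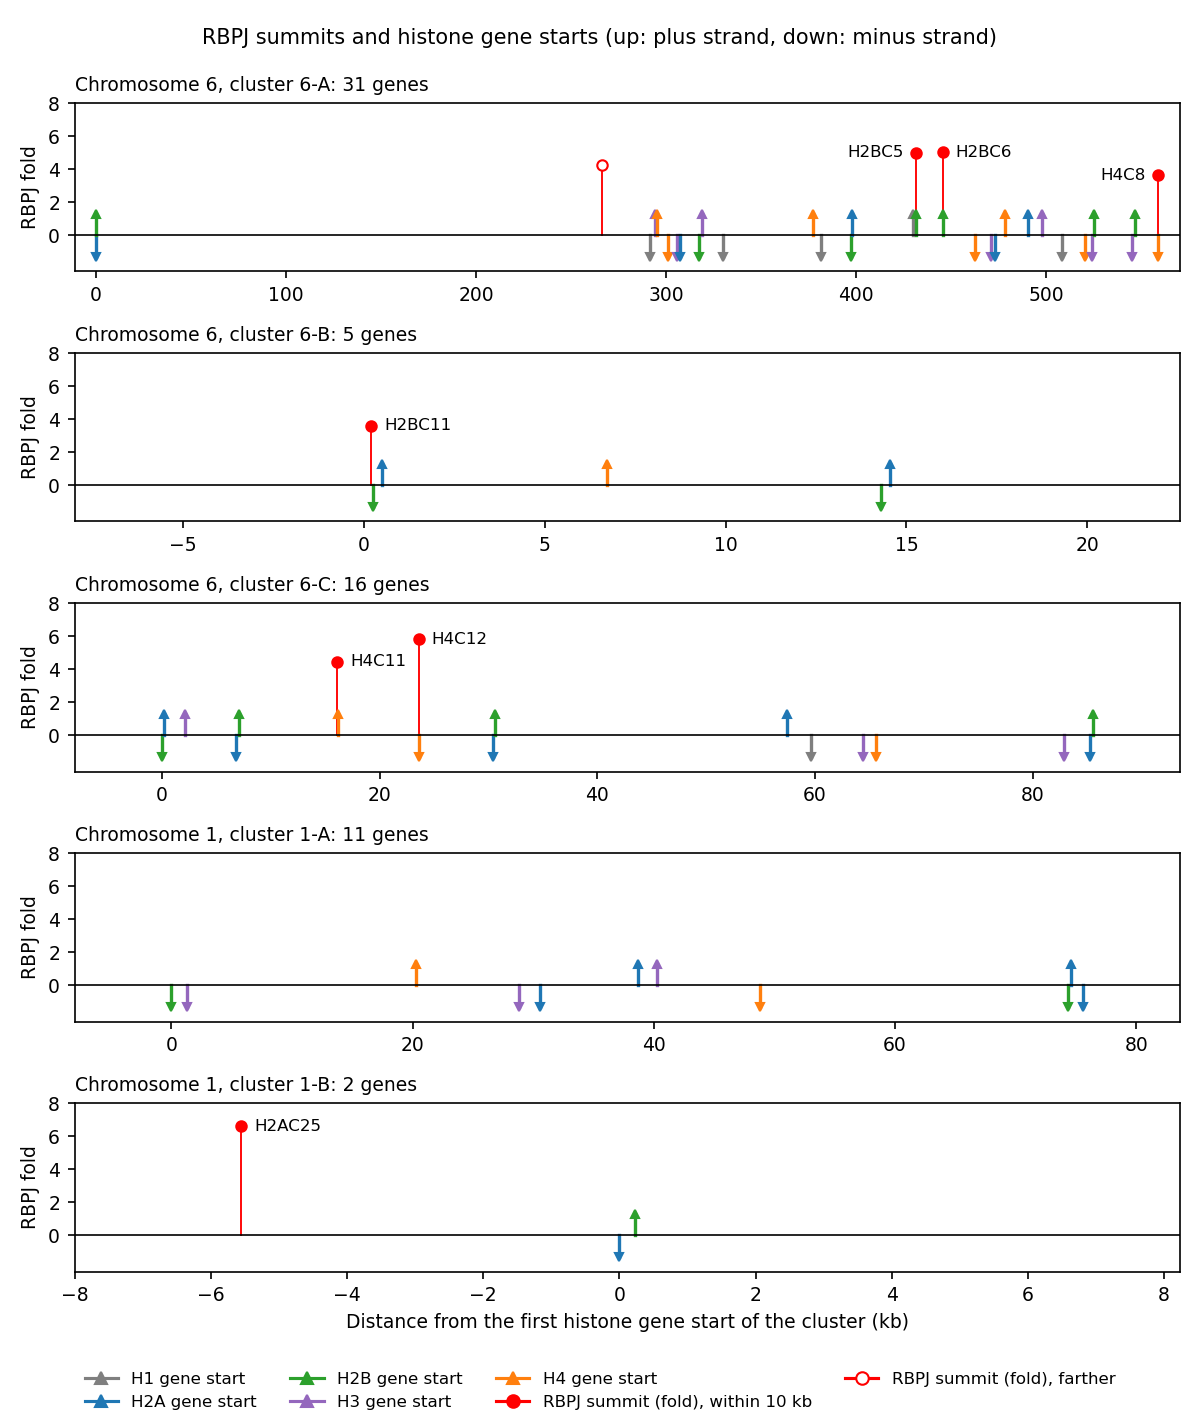
RBPJ summits (red stems, height is the fold enrichment) and outermost histone gene starts (arrows, up for the plus and down for the minus strand, coloured by histone) along 5 clusters, with the distance from the first start in kb. Filled circles are the 7 summits within 10 kb of a member, the open circle is a summit 25.2 kb from H1-1, and cluster 1-A has no summit.

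H2B genes carried 3 of the 6 peaks at starts. The H2BC5 peak (chr6:26158352-26158419) had a fold of 4.99 and a -log10 q of 3.60. Its summit at 26158368 lay between the 2 annotated starts of H2BC5, 18 bp after the first and 6 bp before the second, in the UTR. The same summit was 1811 bp from the start of H1-4, a linker histone gene on the same strand, which was the only H1 gene with a summit within 10 kb.

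The H2BC6 peak (chr6:26172352-26172406) was 55 bp wide, with a fold of 5.02 and a -log10 q of 3.64. Its summit lay 94 bp after the upstream start of H2BC6, in the UTR. H2BC6 has another start 11702 bp farther on, which was 11608 bp from the summit. The peak is therefore tied to H2BC6 through the upstream start alone, and no other member lay within 10 kb. Part of the sequence at this summit is repeated: 94.1% of its 50-base words occur once in the genome, while others occur up to 8041 times.

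The H2BC11 peak (chr6:27100457-27100532) had the lowest fold of the 7, at 3.62, and the lowest -log10 q, at 1.56. Its summit was the last base of the peak and lay 3 bp before the middle of 3 annotated H2BC11 starts and 42 bp after the outermost one. H2AC11, the head-to-head H2A partner, starts 290 bp from the summit, and H4C9 starts 6529 bp away. H2AC11 and H2BC11 were the only head-to-head pair of the 11 with a summit within 1 kb of both genes. The other 5 peaks at starts were at genes outside such pairs.

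H4 genes carried the other 3 peaks at starts. The H4C8 peak (chr6:26285745-26285799) was 55 bp wide and had a fold of 3.65 and a -log10 q of 2.37. Its summit lay 14 bp after the protein-coding start, in the UTR, and farther inside the annotated gene, which begins at 26285866. The H4C11 peak (chr6:27791833-27791928) had a fold of 4.47 and a -log10 q of 2.30, with its summit 33 bp before the start. The H4C12 peak (chr6:27799331-27799396) had a fold of 5.82 and a -log10 q of 5.16, with its summit 22 bp before the start. H4C11 and H4C12 face each other from opposite strands, and each was also within 10 kb of the other's peak, at 7490 and 7501 bp. The H4C11 peak was further within 10 kb of H2BC14 (9037 bp) and H2AC14 (9282 bp), and the H4C12 peak of H2AC15 (6793 bp) and H2BC15 (6987 bp).

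The H2AC25 peak (chr1:228639927-228640186) was the widest of the 7 at 260 bp and the strongest, with a fold of 6.61 and a -log10 q of 6.36. Its summit at 228640023 lay 5551 bp downstream of the H2AC25 start and 5781 bp from that of H2BC26. It was the only peak of the 7 away from a start. H2AC25 and H2BC26 were thus near a peak without one at their promoters.

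The remaining 51 members had no RBPJ summit within 10 kb. Their distance to the nearest summit ran from 12.6 kb at H2BC10 to 2504 kb at H4C16, with a median of 42.0 kb, and it was 10 to 50 kb for 27 genes and more for 24. All 13 H3 genes were among them, and so were 5 of the 6 H1 genes. The H1 genes without a near peak lay 25.2 kb (H1-1), 36.0 kb (H1-5), 50.0 kb (H1-6), 50.5 kb (H1-3) and 63.9 kb (H1-2) from a summit. H2AC1 and H2BC1, at the edge of cluster 6-A, were 266.0 and 265.8 kb from one. The nearest summit outside the 10 kb limit belonged to a peak between genes (chr6:25992760-25993001) with a fold of 4.24 and a -log10 q of 3.92, 25.2 kb from H1-1. No summit fell between 5.55 and 25.2 kb of its nearest member, so a limit set anywhere in that range gives the same 7 peaks.

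Most of the 7 peaks were near several of these packed genes (5 of them near 2 to 4, those at H2BC6 and H4C8 near 1), so genes and peaks were both counted. Within 10 kb of an RBPJ summit lay 15 of 66 histone genes (22.7%, 14.3 to 34.2), against 11.3% of all protein-coding genes and 14.8% of CpG-rich ones. By histone, these were 6 of 16 H2B, 4 of 17 H2A, 4 of 14 H4, 1 of 6 H1 and 0 of 13 H3 genes. The interval takes the 15 genes as independent, although they share 7 peaks, so it is too narrow. When a summit was given only to the gene with the nearest start, 7 of 66 members (10.6%, 5.23 to 20.3) had one, against 8.82% of all genes. Within 1 kb the count was also 7 of 66, against 8.9% of all genes and 12.6% of CpG-rich genes. These 7 were the 6 genes with a peak at the start and H2AC11. Per 100 genes there were 10.6 peaks within 10 kb of histone genes and 11.1 within 10 kb of all genes, and 9.09 and 9.496 within 1 kb. By these counts of peaks and of nearest genes, histone genes stood near all protein-coding genes. The same counts were not made for CpG-rich genes alone. At 10 kb the 15 members shared 7 peaks, and the part of this sharing in the difference from all genes was not tested.

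The packing itself can be counted. A histone gene had a median of 2 other protein-coding genes within 10 kb (mean 2.17), and the median over all genes was 0 (mean 0.501). Only 2 of the 66 had none, against 64.2% of all genes. At 50 kb, 42 of 66 members (63.6%, 51.6 to 74.2) had an RBPJ summit, against 21.8% of all genes, while the number of peaks involved was 8. That interval too takes genes that share a peak as independent. With margins of 10 kb, the 6 clusters covered 0.855 Mb and held 8 RBPJ peaks, or 9.36 per Mb, against 0.964 per Mb over chromosomes 1 to 22 and X. Of the 8, 1 lay 25.2 kb from its nearest member, H1-1. This rate is per length of packed sequence, and per 100 genes the counts within 10 kb were 10.6 and 11.1.

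**Figure D2:**
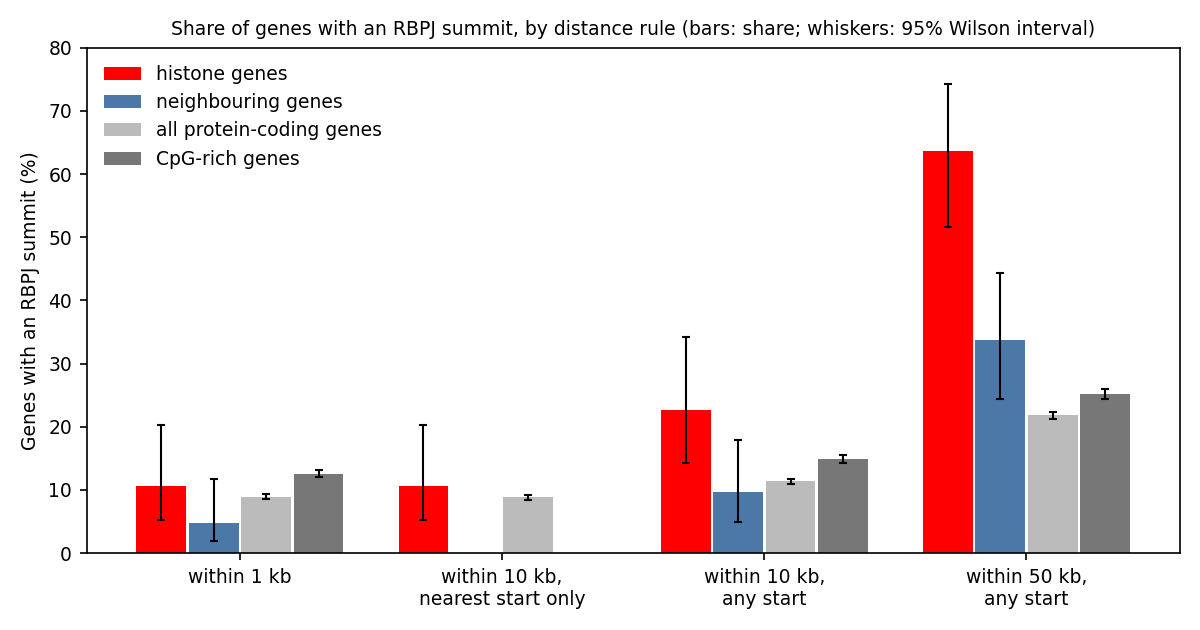
Share of genes (%) with an RBPJ summit within 1 kb, within 10 kb by nearest start only, within 10 kb and within 50 kb of a start, for histone, neighbouring, all and CpG-rich protein-coding genes, with 95% Wilson intervals; the nearest-start count was made for histone and all genes only. The histone bar is 10.6% in the first pair of groups, 22.7% at 10 kb and 63.6% at 50 kb.

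Genes near a peak were also counted by cluster, and each count rests on at most 3 peaks. Of all protein-coding genes, 11.3% were near a peak. Differences between clusters were not tested. Cluster 6-B had 3 of 5 genes near its 1 peak, cluster 6-C had 6 of 16 near 2 peaks, cluster 6-A had 4 of 31 near 3 peaks, and cluster 1-B had 2 of 2 near 1 peak. None of the 11 genes of cluster 1-A was near a peak, and their nearest summits were 682 to 757 kb away. H4C16 had none either. Without cluster 6-C, 9 of the remaining 50 members were near a peak, and without cluster 6-A, 4 peaks were left.

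L3MBTL3 peaks were not called at any histone cluster. Of the 66 members, 0 had an L3MBTL3 summit within 1, 10 or 50 kb, which allows a share of up to 4.55% by the rule of 3 counts (3 of 66) and of up to 5.5% by the Wilson interval. The share of all genes at 10 kb was 1.58%. That background is below what 66 genes can resolve. The L3MBTL3 summits nearest to the clusters were 0.51 Mb from cluster 1-B, 1.23 Mb from 6-A, 2.61 Mb from 6-B, 2.85 Mb from 6-C, 3.07 Mb from 1-A and 34.5 Mb from H4C16. None of the 7 RBPJ peaks overlapped an L3MBTL3 peak, and 0 of 66 members were near an RBPJ peak shared with L3MBTL3, against 0.602% of all genes.

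The surrounding non-histone genes gave a local comparison. Of all protein-coding genes, 11.3% had an RBPJ summit within 10 kb and 8.9% within 1 kb. Of 83 protein-coding genes with a start inside the clusters or within 500 kb of them, 8 (9.64%, 4.97 to 17.9) had an RBPJ summit within 10 kb and 4 (4.82%) within 1 kb. Their peaks lay at the starts of GUK1 (guanylate kinase), CARMIL1 (a regulator of actin capping protein) and the zinc finger genes ZNF322 and ZNF184, 30 to 126 bp from the start. The GUK1 peak had a fold of 6.46, the CARMIL1 peak 5.16, the ZNF322 peak 4.37 and the ZNF184 peak 4.18. The serine protease gene PRSS16 had 2 peaks 2800 and 2913 bp from its start (folds 4.54 and 5.08), ZKSCAN8P1 had 1 at 5462 bp (6.24) and ZSCAN9 had 1 at 5896 bp (4.02). None of the 20 neighbours of cluster 1-A or the 13 of H4C16 had one. With so few genes, these counts of 0 do not set them apart from all genes. No neighbour was near an L3MBTL3 summit, against 1.58% of all genes.

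RBPJ peaks at histone genes ranged by fold from near the bottom of the list to its upper part, with most below its median. The 7 had a median fold of 4.99 (range 3.62 to 6.61), the 8 peaks at neighbouring genes 4.81 (4.02 to 6.46) and all 2926 RBPJ peaks 5.08. Without the H2AC25 peak, the 6 at starts had a median fold of 4.73 and a median -log10 q of 2.98. All RBPJ peaks within 1 kb of a start had medians of 5.08 and 3.41. By fold, the H2AC25 peak stood at the 91.0 percentile of the list and the H4C12 peak at 76.0. The H2BC6 and H2BC5 peaks stood near the middle, at 46.4 and 44.9, the H4C11 peak at 23.9, and the H4C8 and H2BC11 peaks near the bottom, at 5.26 and 4.17. A -log10 q of at least 5 was reached by H2AC25 and H4C12, 2 of the 7 peaks, against 21.9% of the list. At starts it was reached by 1 of 6, against 19.1% of the 1876 RBPJ peaks within 1 kb of any protein-coding start. The 7 peaks had a median width of 68 bp, and the list had 94 bp.

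**Figure D3:**
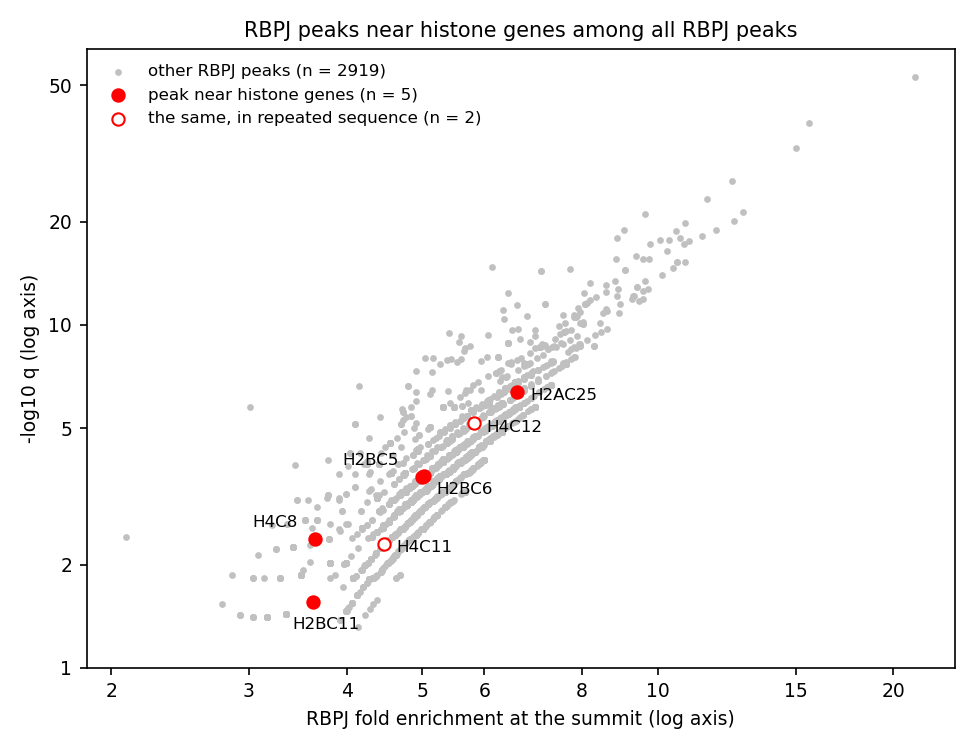
Fold enrichment against -log10 q (both log axes) of the 2926 RBPJ peaks, with the 7 peaks near histone genes in red and open circles for the 2 in repeated sequence. H2AC25 and H4C12 lie above a -log10 q of 5, and H2BC11 and H4C8 lie at the lower left, with folds of 3.62 and 3.65.

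The summits at histone genes lay close to the start itself. The 6 summits were 3 to 94 bp from the nearest start (median 18 bp), 4 of them upstream of it and 2 downstream. The 94 bp are to the upstream start of H2BC6. Set against the outermost protein-coding start instead, the H2BC5 and H2BC11 summits lay downstream, by 18 and 42 bp. The H4C8 summit, at 26285748, was set against the protein-coding start, and the annotated gene begins farther upstream, at 26285866. All 6 were within 100 bp of the nearest protein-coding start. So were 49.7% of the 1876 RBPJ summits within 1 kb of a start, whose median distance was 101 bp. Within 50 bp lay 5 of the 6, against 33.3% of the 1876.

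**Figure D4:**
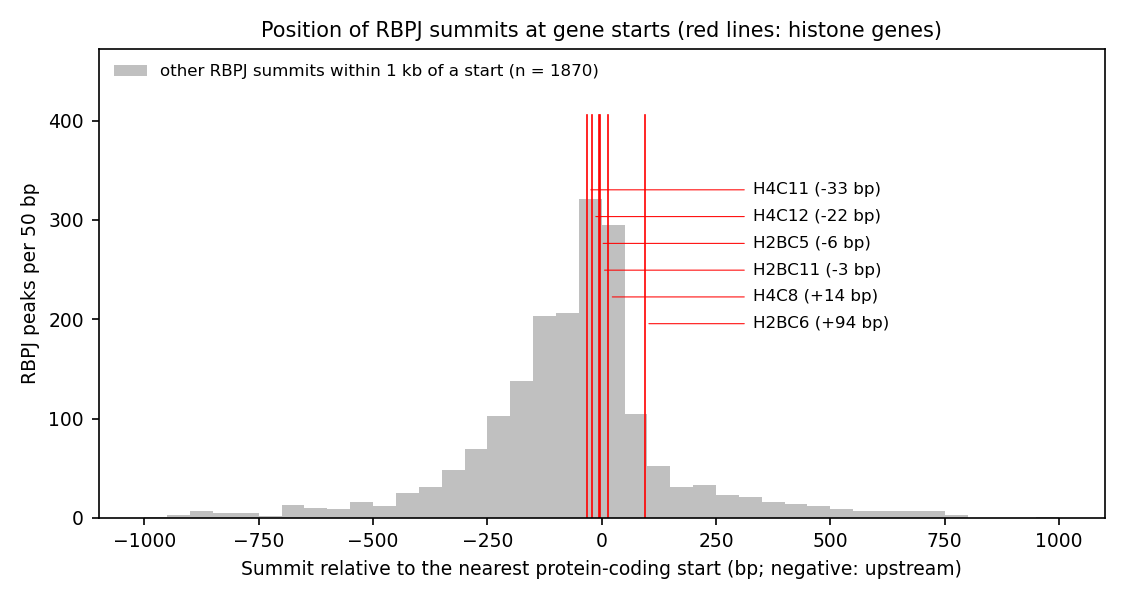
Signed distance (bp, negative is upstream) of RBPJ summits within 1 kb of a protein-coding start, as counts per 50 bp for 1870 other peaks (grey) and as lines for the 6 at histone genes (red). The red lines lie between -33 bp (H4C11) and +94 bp (H2BC6).

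The full RBPJ words were missing around the histone summits. CGTGGGAA or TGTGGGAA, sought on both strands within 100 bp, occurred at 0 of 7 histone summits, 2 of 8 neighbour summits (the first PRSS16 peak and ZKSCAN8P1) and 8.51% of all RBPJ summits. Of RBPJ summits within 1 kb of a start, 5.60% had it, a share inside the interval that 0 of 7 allows (0 to 35.4%). Within 250 bp it occurred at 1 histone summit, as TGTGGGAA on the plus strand 232.5 bp from the H4C12 summit (chr6:27799589-27799596). The core TGGGAA, which is part of both words, occurred at 2 of 7 histone summits and 29.5% of all RBPJ summits. At H2AC25 it occurred in 2 copies, one of them (chr1:228640015-228640020) 5.5 bp from the summit, as the capitals in the printed sequence show. At H2BC6 it lay on the minus strand (chr6:26172322-26172327), 56.5 bp from the summit. In the 200 bases before the outermost start, the full words occurred in 0 of 66 members, 1.71% of all genes and 1.59% of CpG-rich genes.

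A TATA box word stood near most of the summits at histone starts. H4C11 and H4C12 are counted apart here, although their promoters were identical at 195 of 200 positions. TATAAA occurred within 100 bp of 4 of the 6 summits, those of H2BC5, H2BC11, H4C11 and H4C12, against 1.65% of all RBPJ summits within 1 kb of a start and 2.46% of all RBPJ summits. In H4C11 and H4C12 the word stood 31 to 26 bases before the start, and its centre was 4.5 and 6.5 bp from the summit. In H2BC5 it stood 29 to 24 and in H2BC11 28 to 23 bases before the outermost start, 44.5 and 67.5 bp from the summit, and the H2BC11 window held a further copy on the other strand, 13.5 bp from its summit. The octamer ATTTGCAT occurred near the H2BC11 summit only, 47 to 40 bases before the outermost start, against 0.586% of RBPJ summits at starts. GGGCGG, a GC box, occurred at 3 of the 6 summits, against 75.1% of RBPJ summits at starts. None of the 6 had the words sought for CRE (TGACGTCA), E-box (CACGTG), AP-1 (TGACTCA or TGAGTCA), E2F (TTTCGCGC or TTTGGCGC), ETS (CCGGAAGT), RUNX (TGTGGTT) or TEAD (GGAATG).

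The TATA box, the NFY word and the octamer were also more common in histone promoters without a peak than in all promoters, the octamer at H2A and H2B genes alone. TATAAA occurred in the 200 bases before the start of 39 of 66 members (59.1%), against 8.02% of all genes, and CCAAT in 54 (81.8%), against 29.3%. The octamer occurred in 18 members, 11 of 16 H2B and 7 of 17 H2A genes, against 1.25% of all genes. The H1 box AAACACA occurred in 6 of 6 H1 genes and in no other member. Among the 7 members with an RBPJ summit within 1 kb, 5 had TATAAA and 3 had CCAAT; among the 59 without, 34 had TATAAA (57.6%) and 51 had CCAAT (86.4%). CCAAT was scarce in H4 promoters as a class, at 4 of 14, and occurred in 13 of 13 H3, 6 of 6 H1, 15 of 16 H2B and 16 of 17 H2A promoters. In the printed sequences, H2BC5 has 4 copies and H2BC11 has 3, and H2BC6, H4C11 and H4C12 have none. The H2BC6 bases searched and printed are those before its upstream start, and those before its other start were not searched. A word match is a description of the letters and not a measured binding site.

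Histone genes are copies of one another, and this touches 2 of the peaks directly. The 200 bases before H4C11 and H4C12 were identical at 195 of 200 positions (97.5%), as the printed pair shows, while the median over 91 pairs of H4 promoters was 48.2%. Of the 50-base words within 100 bp of their summits, 34.2% at H4C11 and 32.9% at H4C12 occurred once in the genome, and the others occurred at most 2 times. A read is no longer than 50 bases, so much of what comes from one of these starts matches the other as well. How such reads were placed is not given in the sources used here. The part of repeated sequence in the H4C11 and H4C12 peaks was not tested. Peaks with under 50% single-copy words made up 3.21% of the RBPJ list and 1.44% of those at starts. Without them, 5 RBPJ peaks and 9 members within 10 kb were left, and 4 summits at starts.

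The same holds for genes without a peak. In cluster 1-A, 6 of 11 genes (H4C14, H3C14, HIST2H2AA3, H2AC19, H3C15 and H4C15) had no single-copy word within 250 bp of the start, and H3C13 had 33.0%. The promoters of H4C14 and H4C15 were identical over all 200 bases. A 50-base read from such a start matches more than 1 place, and the part of this in the absence of peaks from cluster 1-A was not tested. Of all members, 9 had under 50% single-copy words and 43 had 100%.

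**Figure D5:**
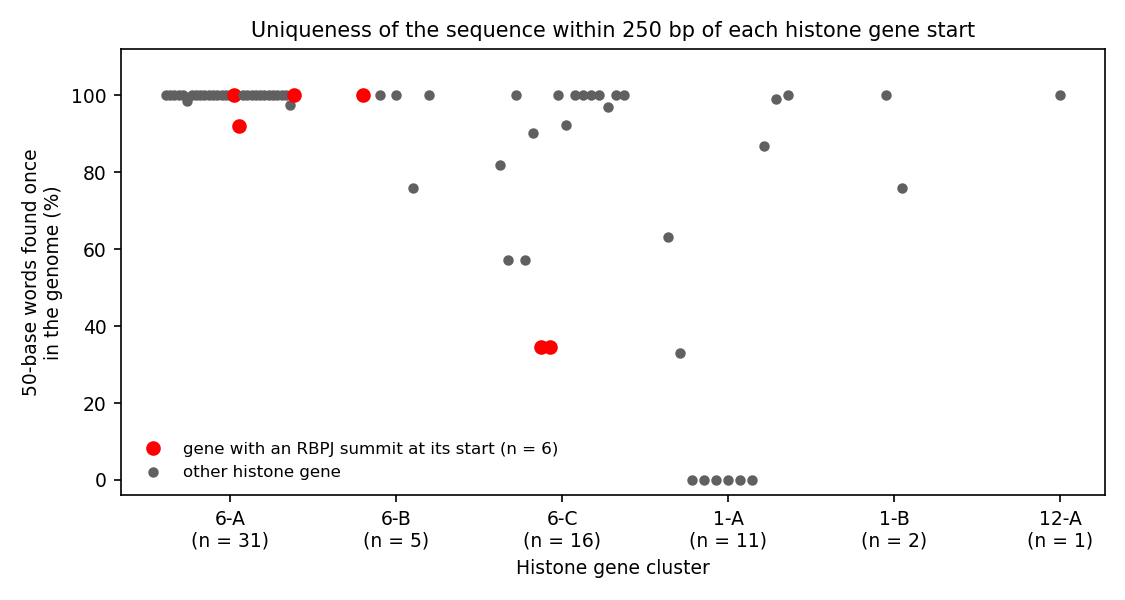
Percent of 50-base words within 250 bp of each histone gene start that occur once in the genome, by cluster, with the 6 genes with an RBPJ summit at the start in red. H4C11 and H4C12 lie at 34.7%, and 6 genes of cluster 1-A lie at 0%.

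Genes that make or use histones were looked at beside the clusters. Of 25 genes listed for transcription and 3′ end processing of histone mRNAs, 7 (28%) had an RBPJ summit and 2 an L3MBTL3 summit within 10 kb, against 11.3% and 1.58% of all genes. The list held YARS1, which encodes a tyrosyl-tRNA synthetase and is not such a factor; leaving it out, which was decided once the values were known, gave 6 of 24 (25%) and 2 of 24. SLBP, which encodes the stem-loop binding protein of histone mRNAs, was 345 bp from an RBPJ summit with a fold of 6.74 that overlapped an L3MBTL3 peak with a fold of 5.60, but the nearest start belonged to TACC3. CCNE2, for cyclin E2, was 272 bp from a shared peak with folds of 4.98 (RBPJ) and 5.19 (L3MBTL3), and there the nearest start belonged to NDUFAF6. LSM11, a subunit of the histone pre-mRNA processing particle, had an RBPJ summit 20 bp from its start with a fold of 5.04, and the transcription factor gene YY1 had one 257 bp away with a fold of 5.23. NFYA, for a subunit of the CCAAT-binding factor, had 5 RBPJ summits 83 to 913 bp away with low folds of 3.46 to 4.02, and 2 of the 5 were nearer to OARD1. CPSF3, for the endonuclease that cuts histone pre-mRNA, was 366 bp from a summit with a fold of 5.92 that was nearer to ITGB1BP1. The YARS1 summit had a fold of 4.82 and was nearer to S100PBP. By nearest start, only LSM11, YY1 and NFYA of the list had an RBPJ summit, and no gene had an L3MBTL3 summit. The RBPJ share of all genes by that rule was 8.82%.

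Of 12 replication-independent histone genes, 1 (8.33%) was near an RBPJ summit and 1 near an L3MBTL3 summit, against 11.3% and 1.58% of all genes. H2AX was the one near an RBPJ summit (fold 6.30, 188 bp) and H3-3A the one near an L3MBTL3 summit (fold 4.996, 343 bp). Of 19 histone chaperone genes, 4 (21.1%) had an RBPJ summit and 0 an L3MBTL3 summit within 10 kb, beside the same shares of all genes. ASF1B, which hands H3 and H4 to the assembly factors, had 2 peaks (folds 4.29 and 5.51), and the summit at NAP1L1 was 67 bp from the start (5.11). The summits of DAXX (fold 2.92) and SSRP1 (fold 4.83) lay 5057 and 5726 bp away, nearer to ZBTB22 and TNKS1BP1. Shared RBPJ and L3MBTL3 peaks occurred near SLBP and CCNE2, although the nearest starts belonged to TACC3 and NDUFAF6. At the histone clusters 0 of 66 members had one, which allows a share of up to 5.5%. The share of all genes, 0.602%, lies within that, so the 0 does not set the clusters apart. SLBP and CCNE2 were each looked at because of the list they are in, and no test compares the lists.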

How the data were processed

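ChIP-seq peak lists of RBPJ and L3MBTL3 from MDA-MB-231 cells were used, 1 library each. Per the labels' protocols, BWA 0.7.15 placed reads from 50-cycle single-end runs, cleaned of adaptors by Trimmomatic, on hg19, with 30 to 40 M (megareads) aligned per sample. MACS2 is named in the submitters' processing notes. For its version, cutoff and control, and for reads matching several places, nothing is given in the sources used here. The deposited columns used were the summit's fold over the caller's background (a ratio) and the -log10 q; the deposited -log10 p and score were not compared. The members, lists and words were chosen with earlier results of these data known.

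Sequence was GRCh37, with GENCODE 44 lifted to it (78532 protein-coding starts on chromosomes 1 to 22 and X). A gene was near a summit at most 10 kb from any of its starts. Shared peaks overlapped by at least 1 bp. Starts were CpG-rich where the ratio in 1 kb around the outermost start exceeded 0.6 (12113 genes). Exact 50-base words were counted over the genome on both strands, and a peak was called repeated where under 50% of the words within 100 bp of its summit occurred once. In all, 14 words were searched. Named genes are the members, neighbours and list genes with a summit within 10 kb. Of these, 1 is not reported here. Alternatives were other distances, peak thresholds, start sets, word windows and neighbour ranges, repeats left out and each cluster left out. Scripts used Python 3.11.15, pandas 2.3.3, numpy 2.4.6 and biopython 1.88 and were tested on simulated data.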

Additional observations from a re-analysis of the deposited data

How the results depend on the processing

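The 15 histone genes near an RBPJ peak became 7 at 1 kb, 42 at 50 kb, 6 at a -log10 q of at least 5, 6 at folds of at least the list median, 9 without repeated sequence, 7 by nearest start and 9 without cluster 6-C. Leaving out another cluster gave 11 to 15. The 7 distinct peaks became 2 at that q, 2 at the median fold and 4 without cluster 6-A; the other settings gave 5 to 8. The 9.64% of neighbouring genes became 4.82% at 1 kb, 33.7% at 50 kb, 3.61% at that q and 2.04% for neighbours within 250 kb. The median fold of 4.99 became 6.22 at that q, and the 6 summits at starts became 1. Leaving out repeated sequence, an alternative chosen after seeing the data, left 4 of those 6. The full RBPJ word occurred at 0 summits, at 1 within 250 bp, and its core at 2. A gap of 1 Mb gave 4 clusters in place of 6. The L3MBTL3 count was 0 under every alternative run. No paired analysis was possible because each antibody had 1 library and no result comes from a test. The lists hold no read counts, so the depth behind a single peak is unknown, and a missing peak can lie below the caller's threshold.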
